A study of Mus musculus with 70 samples.

Results

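The 9 platelet genes Ppbp, Pf4, Itga2b, Itgb3, Gp9, Gp1bb, Clec1b, Treml1 and Nrgn were followed through libraries of leukocytes sorted from mouse blood. They were chosen as a set of genes named for platelets, out of 52636 genes in the count table, and were found by their Ensembl identifiers, matched to symbols in GENCODE M21. All 9 had counts, and all 9 passed the low-count filter in every cell type. Levels are counts scaled to library size (CPM) after TMM normalization, which scales libraries to one another within a cell type. The question was whether the members rise together, after stress and from library to library.

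The mice were C57BL/6J, 7 to 8 weeks old, with no transgene or deletion described. Chronic social defeat stress (CSDS) is a protocol in which a mouse is repeatedly defeated by a larger male CD-1 aggressor. The defeated mice were split by their social interaction with a new CD-1 mouse into susceptible (SUS) and resilient (RES) mice, and control (CON) mice were not defeated. Trunk blood of each group was sorted into Ly6Chigh and Ly6Clow monocytes, T cells and B cells, with antibodies to CD11b, Ly6C, Ly6G, B220 and CD90.2 and no antibody to a platelet antigen. There were 6 libraries for each cell type and group, except 4 CON libraries of Ly6Clow monocytes and 5 RES libraries each of B cells and T cells. The labels call the source brain, while the design text and the methods describe blood. The labels do not say which libraries come from the same mouse, so p-values measure only the spread between libraries.

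In all, 2 RES libraries were left out because their markers go against their labels. Library 52, labelled B cells, had 763 CPM summed over the T cell markers Cd3e, Cd3d and Trac, where the 17 B cell libraries used had at most 4.11 CPM. Library 70, labelled T cells, had 0.658 CPM of these markers, where the 17 T cell libraries used had at least 805 CPM. The markers of Ly6Chigh monocytes (Ly6c2, Ccr2 and F13a1) summed to at least 3334 CPM in those cells, and the markers of Ly6Clow monocytes (Ace, Treml4 and Nr4a1) to at least 4026 CPM in theirs. Total counts ran from 19769835 to 67038231 per library, so that a count of 0 allows a level of up to 0.0452 to 0.156 CPM (3 counts, counting error only). Red cell genes were present in every library, at 332 to 11299 CPM summed over Hba-a1, Hba-a2, Hbb-bs, Hbb-bt, Alas2 and Slc4a1.

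Platelets are cell fragments that megakaryocytes shed into blood. They have no nucleus but carry messenger RNA from the megakaryocyte, and they can adhere to leukocytes and be carried along with them. Ppbp and Pf4 encode CXC chemokines stored in platelet alpha granules. Itga2b and Itgb3 encode the chains of the fibrinogen receptor, and Gp9 and Gp1bb encode subunits of the receptor for von Willebrand factor. Clec1b encodes the podoplanin receptor CLEC-2, Treml1 encodes a receptor of alpha granule membranes, and Nrgn encodes neurogranin, a calmodulin-binding protein of neurons that is also abundant in platelet RNA. Itgb3 differs from the others in that its chain also pairs, on leukocytes, with an alpha chain other than that of Itga2b.

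The genes Ppbp (chr5:90768518-90770063, plus strand, GRCm38) and Pf4 (chr5:90772435-90773383, plus strand) are neighbours, while Itga2b and Itgb3 are on chromosome 11, Gp9 and Clec1b on chromosome 6, Gp1bb on 16, Treml1 on 17 and Nrgn on 9. RefSeq promoters (GRCm38.p6) were at hand for 8 of the 9 members, all but Itgb3. The 250 bases before the RefSeq start of the chemokine pair and of Itga2b are printed because these members are described first below. Capitals mark the ETS motif, searched as AGGAAG or CGGAAG on both strands. The GATA motif was searched as AGATAA or TGATAA on both strands and was not in these windows. The windows are chr5:90768268-90768517 (plus) for Ppbp, chr5:90772185-90772434 (plus) for Pf4 and chr11:102469884-102470133 (minus) for Itga2b. The window of Itga2b lies mostly inside the gene as GENCODE M21 places it (chr11:102453297-102470122), since the 2 annotations differ in its start.
Ppbp: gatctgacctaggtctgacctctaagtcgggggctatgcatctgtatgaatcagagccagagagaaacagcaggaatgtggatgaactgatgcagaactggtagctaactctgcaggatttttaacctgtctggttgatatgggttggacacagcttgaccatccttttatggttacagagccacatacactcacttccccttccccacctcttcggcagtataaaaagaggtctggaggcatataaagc
Pf4: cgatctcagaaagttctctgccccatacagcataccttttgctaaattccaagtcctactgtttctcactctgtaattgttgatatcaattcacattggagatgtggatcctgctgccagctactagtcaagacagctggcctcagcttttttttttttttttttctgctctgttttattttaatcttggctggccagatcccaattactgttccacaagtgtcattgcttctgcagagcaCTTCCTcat
Itga2b: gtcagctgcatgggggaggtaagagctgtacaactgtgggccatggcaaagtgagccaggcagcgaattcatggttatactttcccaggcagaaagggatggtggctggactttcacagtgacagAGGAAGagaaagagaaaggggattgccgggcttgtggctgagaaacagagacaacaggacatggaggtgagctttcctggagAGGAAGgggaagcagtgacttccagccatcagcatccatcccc
Over the 8 promoters, 4 held the ETS motif (50.0%), in Pf4, Itga2b, Gp9 and Gp1bb, against 39.2% of 32851 promoters of the same length. The GATA motif was in 1 of 8 (12.5%), Clec1b, against 16.6% of all promoters. A match is a description of the letters and not a site.

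Most members were present at a few CPM or less in most cell types. In B cells Itga2b averaged 15.8 and Nrgn 12.0 CPM. Itgb3 had the highest mean CPM in each cell type, before exon length is taken into account. Of 612 member values, 38 were at 0 counts, and 40 of 68 libraries had counts for all 9 genes. Itga2b, Itgb3 and Nrgn had counts in every library, whereas Gp1bb was at 0 in 19 libraries and Treml1 in 11. Per kilobase of exon, which allows genes to be compared, Itgb3 was highest in both kinds of monocytes and in T cells, at a mean of 7.43 CPM per kb in Ly6Chigh monocytes and 18.8 in T cells. In B cells Nrgn (8.24 CPM per kb) and Ppbp (7.81) were above Itgb3 (6.64). Gp1bb, Clec1b and Treml1 averaged at most 0.741 CPM per kb in every cell type. Gp1bb overlaps Sept5 and Clec1b overlaps Clec9a on the same strand, so part of their reads could not be assigned with certainty.

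**Figure D1:**
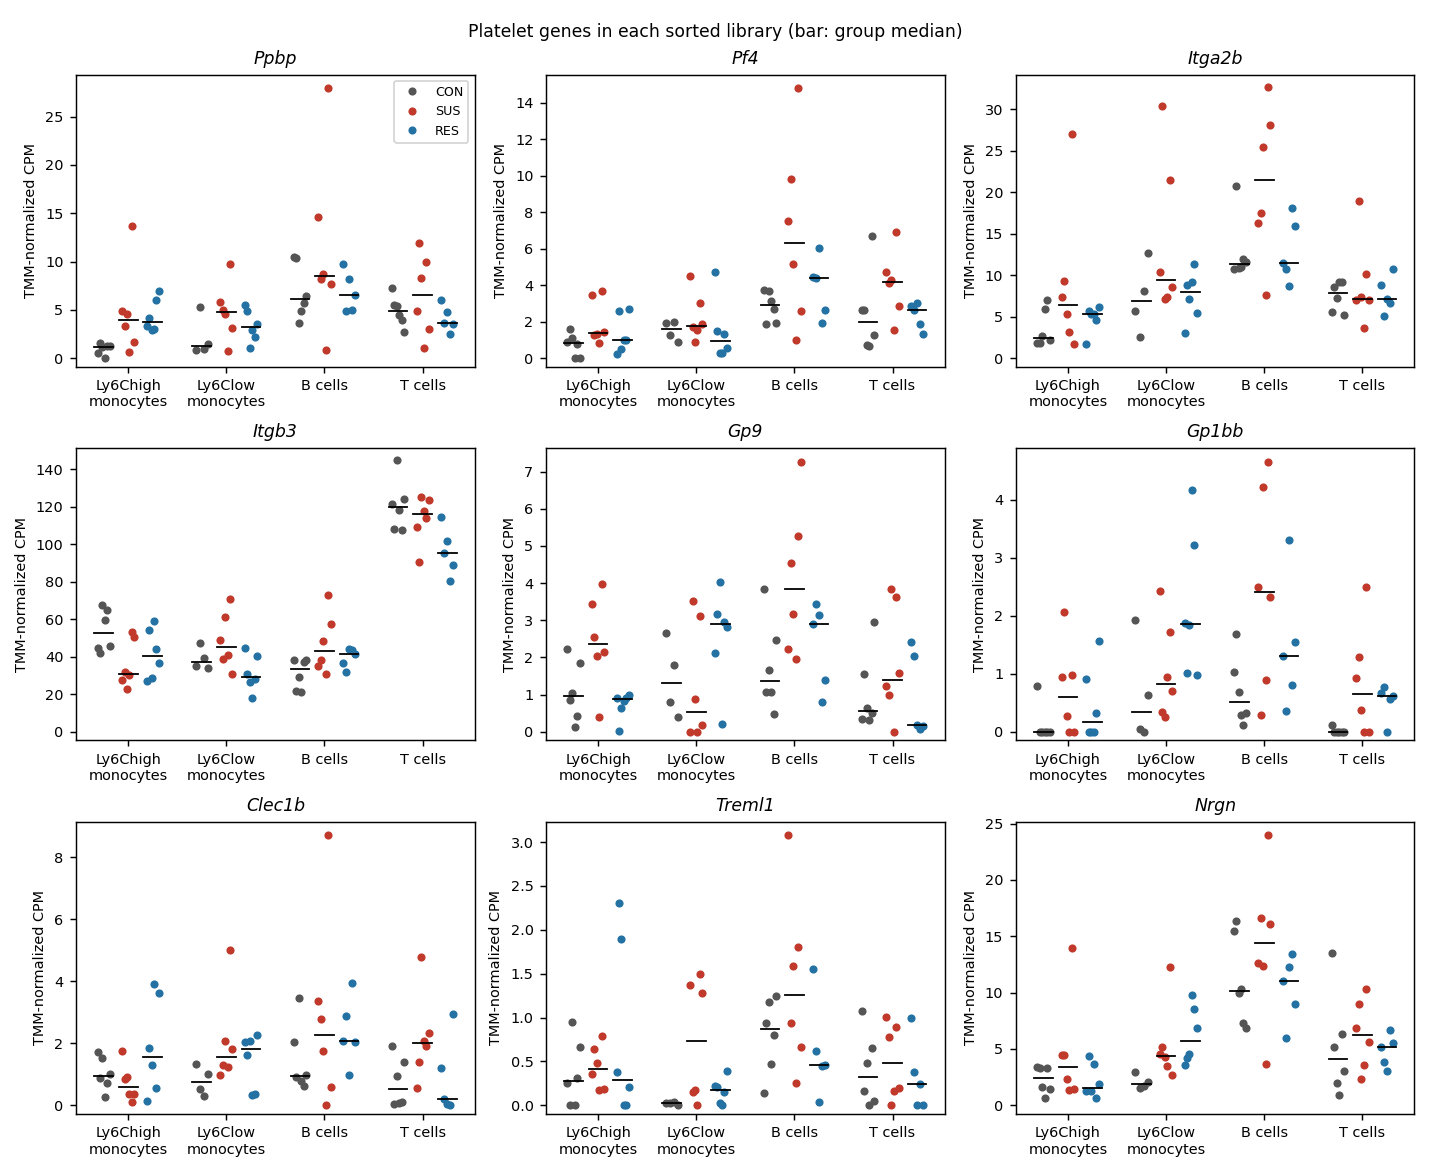
TMM-normalized CPM (linear axis, its own for each gene) of the 9 platelet genes in every library, by cell type and group, with 1 point per library and a bar at the group median. Single SUS libraries stand high in several panels, such as library 14 of Ly6Chigh monocytes for Ppbp (13.7 CPM), and Itgb3 is highest in T cells.

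Ppbp, which encodes a chemokine that attracts neutrophils once it is cleaved, was higher after defeat in Ly6Chigh monocytes and was the member called there. Calls needed both a log2 fold change beyond 1 in either direction and an adjusted p below 0.05, by edgeR's quasi-likelihood test with Benjamini-Hochberg adjustment over all genes tested. In Ly6Chigh monocytes Ppbp ran from 0 to 1.56 CPM in CON mice (median 1.18), from 0.679 to 13.7 in SUS mice (median 3.95) and from 2.92 to 6.90 in RES mice (median 3.69). All 6 RES libraries and 5 of 6 SUS libraries were above the highest CON library. The mean rose from 0.961 ± 0.582 CPM (SD, n = 6) in CON to 4.79 ± 4.64 (n = 6) in SUS mice, a log2 fold change of 2.31 (SE 0.70, adjusted p = 0.0326, edgeR). It was 4.36 ± 1.69 (n = 6) in RES mice, a log2 fold change of 2.17 against CON that was not called (SE 0.70, adjusted p = 0.0685, edgeR). Between SUS and RES mice the adjusted p was 0.999 in edgeR, and their ranges overlapped. The SUS call depends on single libraries. Without library 14, the highest SUS library, the log2 fold change was 1.62 (adjusted p = 0.153, edgeR), and the call was also lost without libraries 1, 7 or 8 and when RES libraries were left out of the fit.

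In the other cell types Ppbp was not called. In Ly6Clow monocytes the CON libraries had 0.818, 0.987, 1.47 and 5.24 CPM, and the SUS libraries ran from 0.732 to 9.74 (median 4.78), with a log2 fold change of 1.17 (SE 0.60, adjusted p = 0.552, edgeR). B cells ran from 3.61 to 10.5 CPM in CON (median 6.08) and from 0.847 to 28.0 in SUS mice (median 8.46), and T cells from 2.74 to 7.24 (median 4.89) and from 1.01 to 11.9 (median 6.56). The groups overlapped in all 3 of these cell types. In each, SUS libraries gave both the lowest and the highest Ppbp level of all libraries.

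Pf4, which encodes platelet factor 4, a heparin-binding chemokine, was not called between groups of mice. In Ly6Chigh monocytes it ran from 0 to 1.59 CPM in CON (median 0.812), 0.832 to 3.68 in SUS (median 1.36) and 0.249 to 2.70 in RES mice (median 0.996). The SUS vs. CON log2 fold change was 1.46 (SE 0.96, adjusted p = 0.357, edgeR). In B cells CON libraries stayed between 1.85 and 3.71 CPM while SUS libraries ran from 0.994 to 14.8, and 4 of 6 SUS libraries were above all CON libraries. The log2 fold change there was 1.26 (SE 0.45), with an unadjusted p of 0.0089 and an adjusted p of 0.999 in edgeR. The RES libraries of B cells, at 1.93, 2.64, 4.41, 4.43 and 6.03 CPM, fell within the SUS range.

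Itga2b, the alpha chain that marks platelets and megakaryocytes as CD41, ran from 1.78 to 7.02 CPM in CON, 1.75 to 27.0 in SUS and 1.71 to 6.12 in RES mice in Ly6Chigh monocytes. The SUS vs. CON log2 fold change was 1.33 (SE 0.53, adjusted p = 0.102, edgeR), and with 1 library left out it ran from 0.57 without library 14 (adjusted p = 0.539, edgeR) to 1.61. It was called only without library 17 (1.52, adjusted p = 0.0406, edgeR). The level of 27.0 CPM came from library 14, the same library that had the highest Ppbp, and the next was 9.24. In B cells 5 of 6 CON libraries lay between 10.7 and 11.9 CPM and 1 was at 20.7, whereas the SUS libraries ran from 7.62 to 32.6 (median 21.4). The log2 fold change was 0.73 (SE 0.27, unadjusted p = 0.011, adjusted p = 0.999, edgeR).

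Itgb3, the beta chain, had the opposite sign to Itga2b in Ly6Chigh monocytes and was not called. In Ly6Chigh monocytes it ran from 42.0 to 67.7 CPM in CON (median 52.6) and from 22.9 to 53.0 in SUS mice (median 30.9), a log2 fold change of -0.59 (SE 0.22, adjusted p = 0.0845, edgeR). That p passed 0.05 in DESeq2 (0.03), though the fold stayed short of the threshold. In B cells the sign was the opposite, with 21.3 to 38.4 CPM in CON and 30.7 to 73.0 in SUS mice and a log2 fold change of 0.60 (SE 0.19, unadjusted p = 0.00455, adjusted p = 0.999, edgeR). T cells were at 121 ± 13.6 CPM (SD, n = 6) in CON and 113 ± 12.6 (n = 6) in SUS mice, a log2 fold change of -0.09 (SE 0.10, adjusted p = 0.999, edgeR).

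The genes of the von Willebrand factor receptor were low. Gp9 in Ly6Chigh monocytes ran from 0.114 to 2.23 CPM in CON, from 0.394 to 3.97 in SUS and from 0.0262 to 0.986 in RES mice, with SUS vs. CON at 1.15 on the log2 scale (SE 0.78, adjusted p = 0.375, edgeR). In B cells it ran from 0.469 to 3.85 CPM in CON and from 1.95 to 7.27 in SUS mice. Gp1bb in Ly6Chigh monocytes was at 0 counts in 5 of 6 CON, 2 of 6 SUS and 3 of 6 RES libraries. In T cells its CON libraries held 4 counts in library 53 and none in the other 5. The T cell SUS libraries held from 0 to 87 counts (0 to 2.50 CPM), and 4 of 6 were above all CON libraries, with an unadjusted p of 0.00407 and an adjusted p of 0.462 in edgeR. Of the T cell RES libraries, 4 of 5 were above all CON libraries (unadjusted p = 0.0101, adjusted p = 0.917, edgeR). No fold is given there, since the CON level rests on 1 library.

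Clec1b and Treml1, the other surface receptors, were also low and were not called between groups of mice. Clec1b in Ly6Chigh monocytes had a SUS vs. CON log2 fold change of -0.49 (SE 0.82, adjusted p = 0.758, edgeR), with 0.255 to 1.73 CPM in CON and 0.118 to 1.76 in SUS mice. Library 14 was the lowest SUS library of these cells for Clec1b and the highest for Ppbp, Pf4, Itga2b, Itgb3, Gp9, Treml1 and Nrgn. Treml1 in Ly6Clow monocytes had 1, 1, 1 and 0 counts in the 4 CON libraries and 0 to 44 counts in SUS libraries, of which 5 of 6 were above all CON libraries (unadjusted p = 0.0148, adjusted p = 0.349, edgeR). Of the RES libraries there, 4 of 6 were above all CON libraries (unadjusted p = 0.122, adjusted p = 0.677, edgeR).

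Nrgn separated the groups best in Ly6Clow monocytes, but was not called. The CON libraries had 1.56, 1.70, 2.06 and 2.98 CPM, while SUS libraries ran from 2.71 to 12.2 (median 4.39) and RES libraries from 3.52 to 9.81 (median 5.68). Thus 5 of 6 SUS and 6 of 6 RES libraries were above every CON library. The log2 fold change was 1.37 in SUS (SE 0.43, adjusted p = 0.223, edgeR) and 1.58 in RES mice (SE 0.44, adjusted p = 0.176, edgeR). In Ly6Chigh monocytes Nrgn reached 3.40 CPM in CON (median 2.44) and ran from 1.31 to 13.9 in SUS mice (median 3.41), where the next highest library was at 4.48.

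**Figure D2:**
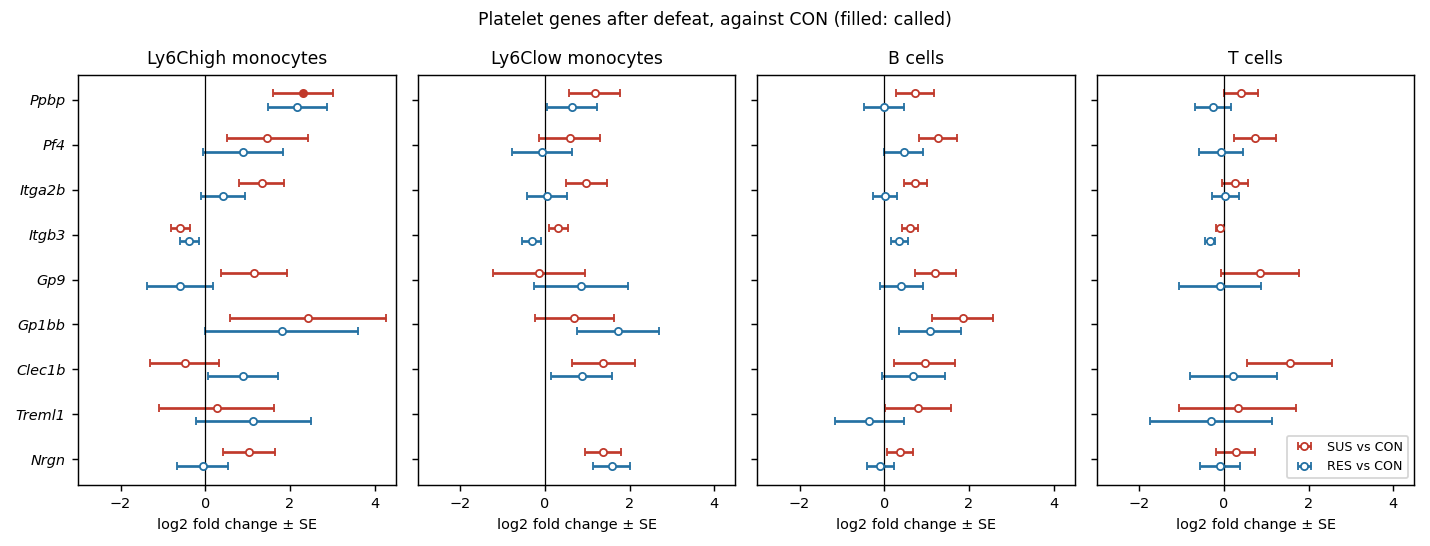
Log2 fold change of each platelet gene in SUS and RES against CON libraries, with its standard error as the bar, in the 4 cell types. Ppbp in SUS Ly6Chigh monocytes (2.31) is the filled, called point. Most SUS points lie above 0, Itgb3 in Ly6Chigh monocytes lies below, and Treml1 in Ly6Clow monocytes and Gp1bb in T cells are not drawn.

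Counted over the set, 1 of 9 members was called in SUS vs. CON Ly6Chigh monocytes, where 3.45% of all genes tested were called. None was called in RES vs. CON Ly6Chigh monocytes (0.997% of all genes), in SUS vs. RES (0% of all genes), or in Ly6Clow monocytes, where the background was 0.0871% for SUS vs. CON, 0.0154% for RES vs. CON and 0% for SUS vs. RES. None was called in B cells (0.00568%, 0% and 0% in the same order) or T cells (0.0265%, 0% and 0%). At an unadjusted p under 0.05, 3 of 9 members passed in Ly6Chigh and 2 in Ly6Clow monocytes, 1 in T cells and 5 in B cells for SUS vs. CON, and 1, 1, 2 and 0 in the same order for RES vs. CON. For SUS vs. RES these were 1, 2, 1 and 1. Of all genes tested, 26.5%, 9.51%, 4.8% and 3.42% were under that p in the same order for SUS vs. CON, 21.2%, 9.67%, 4.11% and 3.18% for RES vs. CON, and 3.66%, 3.79%, 2.39% and 1.36% for SUS vs. RES. The 3 of 9 in Ly6Chigh monocytes is thus near the share of all genes. DESeq2 called Ppbp in Ly6Chigh monocytes in SUS and RES mice and no other member.

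The direction was mostly upward in SUS mice. The log2 fold change was above 0 for 7 of 9 members in Ly6Chigh and 8 of 9 in Ly6Clow monocytes, and for 9 of 9 in B cells and 8 of 9 in T cells. The medians were 1.15, 0.98, 0.80 and 0.41 in that order. Over all genes tested the medians were -0.05, -0.01, -0.00147 and -0.00337. Members measured in the same libraries are not independent of one another, and no test was made of the set. In RES mice 6, 7, 6 and 3 of 9 members were above 0, with medians of 0.89, 0.85, 0.35 and -0.09. Both contrasts share the CON libraries. Summed over the 9 members, the level in Ly6Chigh monocytes was 52.0 to 78.4 CPM in CON and 36.9 to 117 in SUS mice, most of it Itgb3. Without Itgb3 the sum was 6.95 to 13.8 CPM in CON, 6.90 to 64.1 in SUS and 8.76 to 24.0 in RES mice, so the groups overlapped.

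Red cell genes moved with these groups. In Ly6Chigh monocytes 6 of 6 red cell genes were called higher in SUS and 1 of 6 in RES mice, with median log2 fold changes of 2.07 and 1.61. Their summed level was 332 to 1142 CPM in CON, 1049 to 8776 in SUS and 1044 to 4130 in RES libraries, and the highest was library 14. In the other cell types none of the 6 was called, and all 6 had a log2 fold change above 0 in SUS and in RES mice. The summed level of neutrophil genes (Ly6g, Camp, Ltf and Ngp) in Ly6Chigh monocytes was 1.18 to 350 CPM in CON, 15.6 to 1050 in SUS and 5.34 to 595 in RES libraries. Of these 4 genes 3 were tested, and in SUS vs. CON 0 were called. In edgeR 0 of them had an unadjusted p under 0.05 there, while 26.5% of all genes did. In B cells NK cell genes (Ncr1, Klrb1c and Klre1) summed to 0.176 to 1.44 CPM in CON, 2.50 to 7.34 in SUS and 1.80 to 5.14 in RES libraries. None of the 3 genes was called in SUS vs. CON. Of them, 2 had an unadjusted p under 0.05 in edgeR, as did 3.42% of all genes. Ly6Chigh monocyte genes in B cells summed to 2.68 to 8.01 CPM in CON, 7.58 to 18.5 in SUS and 7.00 to 15.0 in RES libraries. This sum is not separate from platelet genes, since F13a1 is also counted among the other platelet genes below. F13a1 made up 9.99 of the 18.5 CPM in library 48. As these are bulk samples, more platelet material in a sort and more of these transcripts per cell cannot be told apart, and the part of RNA from these other cells in the results was not tested.

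The SUS vs. CON change in Ly6Chigh monocytes was next compared with that in each other cell type, in a fit of all 12 groups. Itgb3 was the member whose change differed: it was 1.17 lower on the log2 scale in Ly6Chigh monocytes than in B cells (difference -1.17, SE 0.28, adjusted p = 0.00904, edgeR). This was 1 of 9 members, where 6.18% of all genes differed. No member differed against Ly6Clow monocytes (0.363% of all genes) or T cells (3.22%), and 2 and 1 of 9 members passed an unadjusted p of 0.05, as did 14.2% and 18.7% of all genes. For Itgb3 the differences were -0.89 (SE 0.30, adjusted p = 0.135, edgeR) and -0.48 (SE 0.28, adjusted p = 0.362, edgeR). For Ppbp the adjusted p-values in edgeR were 0.182 for T cells, 0.245 for B cells and 0.628 for Ly6Clow monocytes.

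Between cell types, 8 of 9 members had their highest mean in B cells and Itgb3 in T cells, on levels normalized over all 68 libraries. Ppbp averaged 9.54 ± 6.70 CPM (SD, n = 17) in B cells, 5.02 ± 2.70 (n = 17) in T cells, 3.57 ± 3.33 (n = 18) in Ly6Chigh and 3.07 ± 2.08 (n = 16) in Ly6Clow monocytes. The summed red cell genes, scaled within each cell type, followed the same order. Their medians were 3104 CPM in B cells, 1954 in T cells, 1285 in Ly6Chigh and 1168 in Ly6Clow monocytes. Nrgn averaged 13.5 ± 5.56 CPM in B cells, 5.27 ± 3.11 in T cells, 4.16 ± 2.57 in Ly6Clow and 3.20 ± 3.09 in Ly6Chigh monocytes. Itgb3 averaged 107 ± 15.6 CPM in T cells, 46.4 ± 14.5 in Ly6Chigh monocytes, 44.2 ± 14.1 in B cells and 33.8 ± 11.1 in Ly6Clow monocytes. The order of the monocytes did not hold up for most members, as 1 of 9 was called between them (25.5% of all genes). This was Treml1, at a mean of 0.565 CPM in Ly6Chigh and 0.296 in Ly6Clow monocytes (adjusted p = 0.0199, edgeR), and no fold is given because the CON libraries of Ly6Clow monocytes held 3 counts in all. With CON libraries only it was not called (adjusted p = 0.0689, edgeR).

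Against B cells, 5 of 9 members were lower in Ly6Chigh monocytes (38% of all genes were called), namely Ppbp, Pf4, Itga2b, Gp1bb and Nrgn. Of these, Nrgn had a log2 fold change of -2.14 (SE 0.29, adjusted p = 1.42e-09, edgeR) and Ppbp one of -1.67 (SE 0.34, adjusted p = 2.03e-05, edgeR). In Ly6Clow monocytes 5 of 9 were lower than in B cells (37.3% of all genes), with Treml1 in the place of Gp1bb. Itgb3 was not called in either. B cells were higher than T cells for 4 of 9, Itga2b, Gp9, Gp1bb and Nrgn, and lower for Itgb3, by 1.28 on the log2 scale (difference -1.28, SE 0.12, adjusted p = 1.29e-14, edgeR; 26% of all genes). Against T cells, 2 members were lower in Ly6Chigh monocytes, Pf4 and Itgb3 (42.2% of all genes). Itgb3 was lower and Gp1bb higher in Ly6Clow monocytes than in T cells (36.7% of all genes). With CON libraries alone, 3 members in place of 5 were called between B and T cells, 4 in place of 2 between Ly6Clow monocytes and T cells, and none between the monocytes. The shares of all genes given above are for the 3 groups together, so they are no background for the counts with CON libraries alone.

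Whether members rise together from library to library was described within each cell type by Pearson's r of log2(CPM + 0.5), centred on the group means. Of 36 pairs of members, 31 had a positive r in Ly6Chigh and 26 in Ly6Clow monocytes, 35 did in B cells and 26 did in T cells. In that order the median r was 0.245, 0.189, 0.386 and 0.242, over 18, 16, 17 and 17 libraries. These medians rest partly on single libraries, since the lowest with 1 library left out was 0.170 in Ly6Chigh monocytes (library 11), 0.0162 in Ly6Clow monocytes (library 30), 0.169 in B cells (library 45) and 0.131 in T cells (library 63). The values of a pair share the depth and the scaling of a library, and the 36 pairs share genes, so no p is given for them. An r above 0.5 was seen in 6, 6, 11 and 7 pairs. In B cells the median fell to 0.166 when each pair was left without the 2 libraries farthest from the median of its first gene. Pairs with Itgb3 had a median r of -0.151 in T cells, 0.369 in B cells, and 0.0548 and 0.357 in Ly6Chigh and Ly6Clow monocytes.

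**Figure D3:**
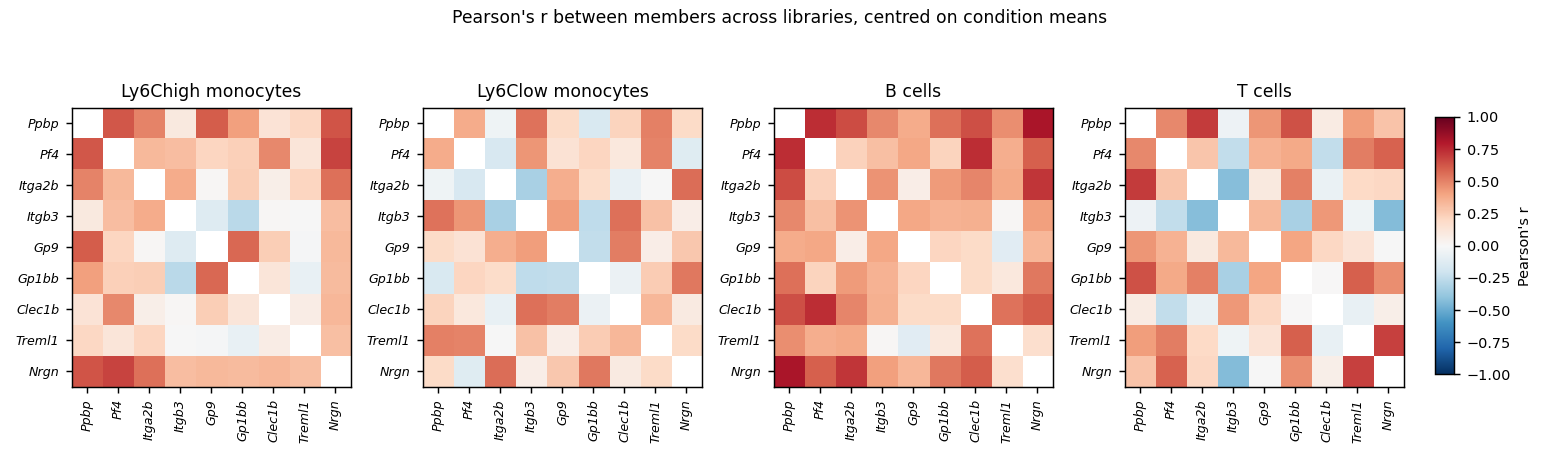
Pearson's r of log2(CPM + 0.5), centred on group means, for each pair of platelet genes in the 4 cell types (colour scale from -1 to 1, 16 to 18 libraries). In B cells 35 of 36 pairs are positive (red), up to 0.818 for Ppbp with Nrgn, whereas in T cells most pairs with Itgb3 are negative (blue).

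The highest r differed between cell types. In B cells Ppbp had an r of 0.818 with Nrgn, 0.739 with Pf4 and 0.651 with Itga2b. Without libraries 45 and 48 these were 0.445, 0.182 and -0.00768. In Ly6Chigh monocytes the highest was Pf4 with Nrgn at 0.672, in T cells Ppbp with Itga2b at 0.698, and in Ly6Clow monocytes Itga2b with Nrgn at 0.557. Against the mean of the other members, Ppbp had an r of 0.902 in B cells, the highest of 17612 genes ranked. These ranks use all libraries of the cell type and were not computed without libraries 45 and 48. The same rank was 13 of 16947 in Ly6Chigh monocytes (r = 0.731), 43 of 18852 in T cells (r = 0.691) and 2073 of 19513 in Ly6Clow monocytes (r = 0.373). For Nrgn it was 6 in Ly6Chigh monocytes (r = 0.772) and 21 in B cells (r = 0.787). Itgb3 ranked 926 in B cells (r = 0.486), 1267 in Ly6Clow monocytes (r = 0.441), 5106 in Ly6Chigh monocytes (r = 0.152) and 11435 in T cells (r = -0.0822).

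Ppbp and Pf4 were tested as a pair, with a two-sided permutation test of 100000 shuffles within groups and adjustment over the 4 cell types. That test sets the pair against shuffled libraries and not against other pairs of genes, which also share depth and scaling. In Ly6Chigh monocytes Pearson's r was 0.620 (permutation p = 0.00387, adjusted p = 0.0155) and Spearman's rho 0.652 (permutation p = 0.00565, adjusted p = 0.0226), and r was 0.494 without libraries 10 and 14. In B cells r was 0.739 (permutation p = 0.016) and rho 0.537 (permutation p = 0.0414), but r was 0.182 without libraries 45 and 48, so the relation rests on those SUS libraries. In T cells r was 0.480 (permutation p = 0.0397) and rho 0.471 (permutation p = 0.0683), and r was 0.349 without libraries 57 and 63. In Ly6Clow monocytes r was 0.369 (permutation p = 0.15), rho 0.403 (permutation p = 0.127), and r was 0.435 without libraries 21 and 27. Adjusted p-values in these last 3 cell types were 0.032, 0.0529 and 0.15 for r and 0.0828, 0.0911 and 0.127 for rho, in the order B cells, T cells and Ly6Clow monocytes.

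**Figure D4:**
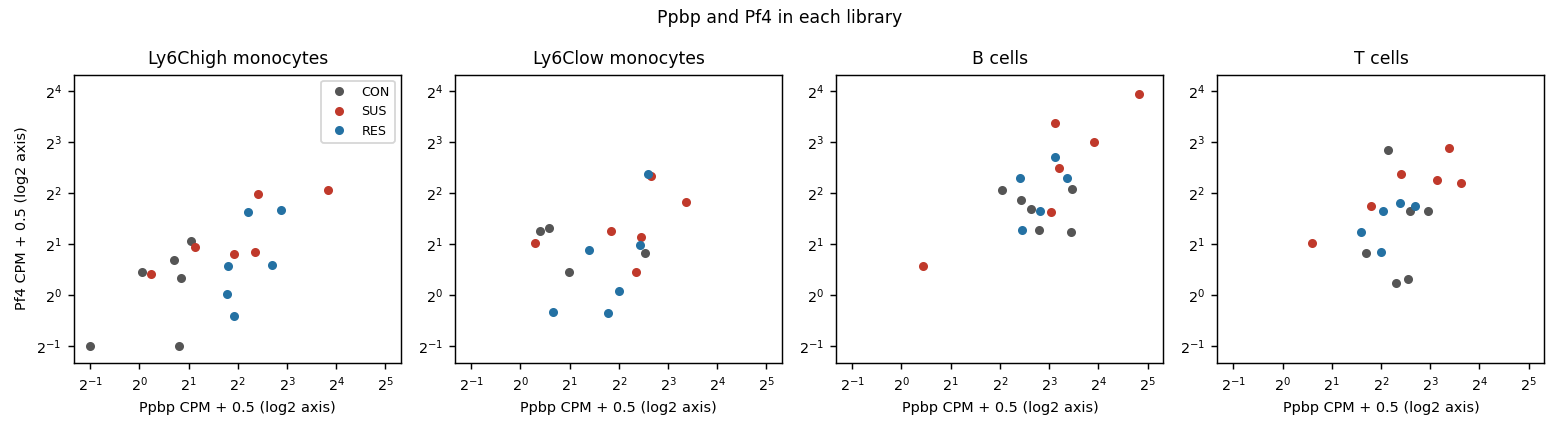
Ppbp against Pf4 in every library of the 4 cell types, as CPM + 0.5 on log2 axes, coloured by group. The SUS libraries of B cells spread from library 45 (0.847 and 0.994 CPM) to library 48 (28.0 and 14.8 CPM), and the points of Ly6Clow monocytes scatter.

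In a model across all genes, each gene was also regressed on the log2 level of Ppbp, with the group held fixed. No gene passed an adjusted p of 0.05 with a positive slope in Ly6Chigh monocytes (0% of all genes), Ly6Clow monocytes (0%), B cells (0%) or T cells (0%), so no member was called by edgeR. At an unadjusted p under 0.05, 2 of 8 members passed in Ly6Chigh and 1 in Ly6Clow monocytes, 6 did in B cells and 2 did in T cells, against 12.8%, 5.44%, 5.37% and 4.49% of all genes. In that order slopes were positive for 8, 7, 8 and 7 of 8 members. Pf4 in Ly6Chigh monocytes, whose r with Ppbp passed the permutation test, was not called here. Its slope was 0.93 (SE 0.50, unadjusted p = 0.078, adjusted p = 0.454, edgeR). Nrgn in B cells ranked 2 by p among all genes, with a slope of 0.57 log2 per log2 of Ppbp (SE 0.12, adjusted p = 0.739, edgeR). Pf4 in B cells had a slope of 0.71 (SE 0.20, adjusted p = 0.889, edgeR), and Itga2b in T cells one of 0.54 (SE 0.16, adjusted p = 1, edgeR). Without the 2 libraries farthest from the median of Ppbp, the slopes were 0.37 for Nrgn and 0.15 for Pf4 in B cells and 0.21 for Itga2b in T cells. With Pf4 in the place of Ppbp, the slope of Itga2b in T cells was 0.16. Without library 45 alone, that of Pf4 on Ppbp in B cells was 0.43.

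The genes outside the set whose pattern was most like the mean of the members were ranked by r in each cell type. In Ly6Chigh monocytes they were Rgs10 (r = 0.835), Gm14438 (0.802), Orai3 (0.788), Rpl18-ps2 (0.780) and Ramp1 (0.775), out of 13216 genes with a mean of at least 1 CPM over 18 libraries. In Ly6Clow monocytes they were Nmnat1 (0.859), Got2 (0.827), Plekho2 (0.826), Gm6223 (0.822) and Zbtb11os1 (0.820), over 16 libraries. In B cells Mrpl39 (0.883), Dcbld1 (0.872), Rpl10-ps3 (0.860), Adgrg1 (0.853) and Metap1 (0.848) were highest, and in T cells March7 (0.802), Kin (0.786), Cyp4f17 (0.779), Zfp410 (0.778) and Stub1 (0.774), over 17 libraries each. These values are the top of many correlations over few libraries.

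The wider platelet program was looked at through 44 other platelet genes in 4 lists, of which 39 were tested in Ly6Chigh and 41 in Ly6Clow monocytes, and 36 and 40 in B and T cells. In SUS vs. CON Ly6Chigh monocytes 1 of 39 was called, against 3.45% of all genes, and 25 of 39 had a log2 fold change above 0. That gene was Tubb1, the beta-1 tubulin of the platelet marginal band. It ran from 0.380 to 1.94 CPM in CON (median 1.53) and from 1.90 to 11.4 in SUS mice (median 3.73), and 5 of 6 SUS libraries were above all CON libraries. The log2 fold change was 1.73 (SE 0.51, adjusted p = 0.0269, edgeR), and without library 14 it was 1.22 (adjusted p = 0.164, edgeR). The call was also lost without library 1, 10 or 16, though without library 10 another gene was called in its place. RES mice, at 1.52 to 3.44 CPM, were not called (adjusted p = 0.494, edgeR).

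Elsewhere the SUS vs. CON log2 fold change of Tubb1 was 1.82 for Ly6Clow monocytes (SE 0.52), 1.47 for B cells (SE 0.40) and 1.18 for T cells (SE 0.38), with adjusted p-values of 0.165, 0.755 and 0.479 in edgeR and 5, 5 and 4 of 6 SUS libraries above all CON libraries. Thbs1, which encodes the alpha granule protein thrombospondin-1 and is also made by monocytes, passed the p but not the fold in SUS Ly6Chigh monocytes (0.99, SE 0.29, adjusted p = 0.0252, edgeR). In Ly6Clow monocytes its CON libraries ran from 2.88 to 7.53 CPM, SUS from 3.37 to 31.2 and RES from 5.22 to 18.6. The SUS log2 fold change there was 1.90 (SE 0.48, adjusted p = 0.126, edgeR). DESeq2 called Thbs1 in SUS and RES Ly6Clow monocytes and in SUS B cells, and Tubb1 in SUS Ly6Clow monocytes. Fermt3, the integrin activator kindlin-3 of all blood cells, had a log2 fold change of 0.72 in SUS Ly6Chigh monocytes (SE 0.19, adjusted p = 0.0137, edgeR), under the fold threshold.

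By list, 7 of 13 tested platelet receptors, 7 of 9 granule and secreted genes, 8 of 11 cytoskeleton, signalling and eicosanoid genes and 3 of 6 megakaryocyte transcription factors had a SUS log2 fold change above 0 in Ly6Chigh monocytes, with medians of 0.10, 0.99, 0.75 and -0.10. Several of these genes are made by leukocytes as well. F13a1 averaged 2188 CPM, Plek 255 CPM and F5 153 CPM in SUS Ly6Chigh monocytes, and the factors Nfe2, Fli1 and Runx1 195, 135 and 119 CPM. Their log2 fold changes were 0.04 for F13a1, -0.17 for Plek, 0.20 for F5, 0.47 for Nfe2, 0.03 for Fli1 and -0.23 for Runx1, with adjusted p-values from 0.0818 to 0.941 in edgeR. The receptors P2ry1, P2rx1 and F2rl2 had log2 fold changes of 0.14, -0.31 and -0.84, and the thromboxane synthase gene Tbxas1 0.30, with adjusted p-values from 0.381 to 0.820 in edgeR. In the other cell types edgeR called 0 of these genes in SUS vs. CON. An unadjusted p under 0.05 was seen for 8 of 39 in Ly6Chigh monocytes, where 26.5% of all genes passed, 8 of 41 in Ly6Clow monocytes (9.51%), 10 of 36 in B cells (3.42%) and 4 of 40 in T cells (4.8%). In RES vs. CON 0 were called, where 0.997%, 0.0154%, 0% and 0% of all genes were called in the 4 cell types. Under that p were 2, 6, 2 and 2 in the same order, against 21.2%, 9.67%, 3.18% and 4.11% of all genes.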

How the data were processed

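Blood leukocytes were sorted by flow cytometry, and total RNA libraries were made with the SMARTer Stranded Total RNA-Seq Pico kit. Per the labels and the methods, the authors aligned reads with HISAT2 to mm10 and deposited HTSeq counts per gene, as raw whole-number counts with no normalization. Strand setting and handling of duplicates are not given in the sources used here. The members and lists were chosen with earlier results of these data known. Of 70 libraries 68 were used. Genes were filtered with filterByExpr, scaled by TMM and tested with edgeR 4.0.16 (R 4.3.3, robust quasi-likelihood) within each cell type over the 3 groups, and over 12 groups for cell types and interactions. DESeq2 1.42.0 was an alternative, beside other filters, scalings, sample sets and leaving out each library. All 9 members were named, as were other platelet genes that were called or among the 3 highest of their list in Ly6Chigh monocytes, and the 5 genes most like the members in each cell type. Tests were checked on simulated data. Total counts ran from 19769835 to 67038231 per library. Floors cover counting error only, as reads that carry no molecular identifier can be copies of 1 molecule. Not every marker list is reported here.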

Additional observations from a re-analysis of the deposited data

Results flagged for a closer look

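In 14 of 108 groups of 4 to 6 libraries, 1 library stood apart from the rest by Dixon's criterion. Its chance rate of about 1 in 20 holds for normally distributed values. The values here are CPM on a linear scale, many of them low, so the 14 groups cannot be compared with that rate. Library 14 of SUS Ly6Chigh monocytes was high for Ppbp (13.7 CPM, the next 4.83), Itga2b (27.0 CPM, the next 9.24) and Nrgn (13.9 CPM, the next 4.48). Library 30 of SUS Ly6Clow monocytes was high for Clec1b (5.02 CPM, the next 2.09) and Nrgn (12.2 CPM, the next 5.12).

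Among CON libraries, Ppbp was high in library 24 of Ly6Clow monocytes (5.24 CPM), Pf4 in library 65 of T cells (6.66 CPM) and Itga2b in library 38 of B cells (20.7 CPM). Gp1bb was at 0.781 CPM in library 1 of Ly6Chigh monocytes and 0.113 CPM in library 53 of T cells, with 0 in the other 5 CON libraries of each. A group of this kind is flagged however low its only value above 0 is. Among RES libraries, Pf4 was high in library 20 of Ly6Clow monocytes (4.70 CPM), and the low ones were Itga2b in library 3 (1.71 CPM) and Gp9 in library 6 (0.0262 CPM) of Ly6Chigh monocytes, and Gp1bb in library 61 of T cells (0 CPM).

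The SUS vs. CON log2 fold change of Itgb3 differed between cell types, by -1.17 in Ly6Chigh monocytes minus B cells (SE 0.28, adjusted p = 0.00904, edgeR interaction).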

How the results depend on the processing

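Of 476 counts and median correlations with 1 library left out, 463 were rated the same, as were 211 of 223 under other alternatives. Most of the counts were 0 in the main fit and nearly all of those stayed 0, so these totals say little about how firm the calls are. A count was rated the same if it stayed within 1.5 times its main value. A median correlation was so rated if it moved by less than its jackknife error, which comes from leaving out each library. That rule is loose, as it passed the fall from 0.189 to 0.0162 in Ly6Clow monocytes. Members called in Ly6Chigh SUS vs. CON, 1 in the fit of 3 groups, were 0 with at least 10 counts in every library (Ppbp is then filtered out by its 0 count in library 10), 0 with only the 2 groups compared, and 0 to 2 with 1 library left out (0 without library 1, 7, 8 or 14, and 2 without library 17). In Ly6Chigh RES vs. CON they were 1 with DESeq2 and 0 to 1 with 1 library left out (1 without library 14). With CON libraries only, they were 3 for B against T cells, 0 between monocytes and 4 for Ly6Clow monocytes against T cells, which were also 4 with libraries 52 and 70 kept. No share of all genes is given for these cell-type alternatives, so their counts are not set against a background. Other platelet genes called in Ly6Chigh SUS vs. CON were 3 by adjusted p alone, 0 with no filter, and 0 to 2 with 1 library left out (0 without library 1, 14 or 16, and 2 without 2, 5 or 13). DESeq2 called 1 in B cells SUS vs. CON, 1 in Ly6Clow RES vs. CON and 2 in Ly6Clow SUS vs. CON, which was 0 to 1 with 1 library left out (1 without library 27). The log2 fold change of Ppbp in Ly6Chigh SUS vs. CON ran from 1.62 to 2.52 with 1 library left out (adjusted p from 0.0218 to 0.153, edgeR), and adjusted p ran from 0.00505 to 0.0659 under other alternatives. That of Tubb1 ran from 1.22 to 1.89 (adjusted p from 0.0241 to 0.164, edgeR). The sign changed with 1 library left out for Gp9 in Ly6Clow SUS vs. CON (-0.78 to 0.37), Itga2b in T cells SUS vs. CON (-0.095 to 0.43) and Treml1 in Ly6Chigh SUS vs. CON (-0.016 to 0.80). The cause was not tested. Leaving out single libraries was not run for cell-type pairs and the interaction. No paired analysis was possible because the labels number the libraries and name no mouse. Low counts limit Gp1bb and Treml1 most, and 79 of 612 member values were under 10 counts.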

Other observations

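The libraries left out of every comparison carried the members too, but their T cell markers go against their labels, so these values do not describe the labelled cell types. Library 52, labelled RES B cells, had 87.5 CPM of Itgb3, 4.03 of Ppbp, 2.11 of Pf4 and 3.21 of Nrgn. Library 70, labelled RES T cells, had 55.0 CPM of Itgb3, 5.38 of Ppbp, 5.71 of Pf4 and 16.9 of Nrgn.

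In each cell type the lowest and the highest SUS library for Ppbp lay far apart. They were libraries 11 (0.679 CPM) and 14 (13.7 CPM) of Ly6Chigh monocytes, 27 (0.732 CPM) and 30 (9.74 CPM) of Ly6Clow monocytes, 45 (0.847 CPM) and 48 (28.0 CPM) of B cells, and 63 (1.01 CPM) and 57 (11.9 CPM) of T cells. The labels do not say whether any of these came from the same mouse.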
